A study of Saccharomyces cerevisiae with 4 samples.

Results

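The mitochondrial ribosomal protein genes of budding yeast (Saccharomyces cerevisiae) are described here across 4 Affymetrix expression arrays. Members were chosen by name: probe sets whose annotated gene symbol is MRP, MRPL, MRPS or RSM followed only by a number. This gave 66 genes among the 5430 with a value above background on at least 1 array, each read by 1 probe set. Of these, 37 were assigned to the large subunit and 28 to the small subunit, and MRP8 was given no subunit. RSM22 was placed with the small subunit, but neither RSM22 nor MRP8 was matched to a named protein of the ribosome structure. All 66 are called mitoribosomal below by the naming rule. MRP35, which the same rule matches in the RefSeq gene table, was not analysed here. Total RNA came from log phase cultures in YPD, a rich glucose medium. The first strain was BY4741, labelled as mating type a with the alleles his3Δ1, leu2Δ0, met15Δ0 and ura3Δ0. The second was a derivative of BY4741 labelled hsp30Δ::kanMX, in which HSP30, the gene of a stress-induced plasma membrane protein, is given as replaced by a drug resistance cassette. Each strain was taken at 30 °C and after 30 min at 40 °C. There was 1 array in each of the 4 groups, so no group has a replicate and no difference between single arrays has a test. The study asked which genes differ between the strains.

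Mitochondria make a few core subunits of the respiratory chain and of ATP synthase on ribosomes of their own. In yeast the RNAs of these ribosomes are encoded in mitochondrial DNA, while nearly all of their proteins are encoded in the nucleus, made in the cytosol and imported. Many of the proteins descend from bacterial ribosomal proteins, and others are found only in mitochondria. In growing yeast, the genes of the cytosolic ribosome are known to be repressed together under stress, and the genes of the mitochondrial ribosome are known to be regulated apart from them, closer to the genes of respiration.

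The array labels were checked first. HSP30 read 15.51 on unheated and 14.18 on heated BY4741, and 15.18 and 15.91 on the unheated and heated hsp30Δ-labelled arrays. These are log2 values, as are all levels below. The gene labelled as deleted thus gave a strong signal on both hsp30Δ-labelled arrays, and the place of its probes on the gene was not checked here. Strains are therefore named by the label of the array throughout. MET17, the gene of the met15Δ0 allele, read 1.95 on every array, at background. HIS3, the gene of the his3Δ1 allele, read 12.36, 10.22, 9.95 and 10.15, far above background on all 4 arrays. The place of its probes on the gene was not checked either. LEU2 and URA3, the genes of the other labelled alleles, were not among the 5430 genes kept. The labelled mating type was read from the a-factor gene MFA1, at 13.33 to 14.80 on the 4 arrays, and the alpha-factor gene MF(ALPHA)1, at 2.61 to 3.69. MFA2, the other a-factor gene, read 13.76 to 14.55, and STE2, the alpha-factor receptor, 13.90 to 14.45. Of the other alpha-specific genes, STE3 read 7.12 to 8.71 and SAG1 read 9.61 to 10.86, well above background. Across all genes the array of unheated BY4741 stood apart. Its Pearson correlation with the others was 0.787 to 0.849, while the other 3 arrays had correlations of 0.937 to 0.980 with each other. Each result below that uses BY4741 at 30 °C rests on that array.

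All 66 mitoribosomal genes were far above the background level of 1.96 on every array. The median member read 12.07 on BY4741 30 °C, 12.59 on BY4741 40 °C, 12.10 on the hsp30Δ-labelled 30 °C array and 12.03 on the hsp30Δ-labelled 40 °C array. Heated BY4741 was thus the one array with a raised median, while the median of all genes stayed between 11.19 and 11.25 on the 4 arrays. On BY4741 30 °C the members ran from 10.16 for RSM22 to 14.55 for MRP8. Levels of different probe sets are not comparable as amounts of mRNA, so only differences between arrays are read for each gene. A lower value on an array also does not tell fewer cells with the mRNA from less mRNA per cell.

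**Figure D1:**
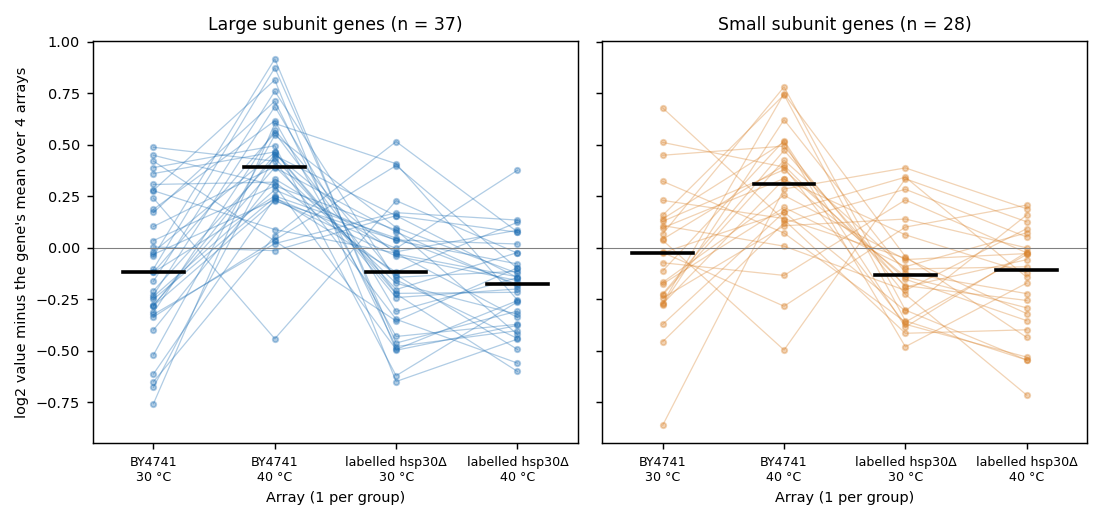
Each point is the log2 value of 1 gene on 1 array minus that gene's mean over the 4 arrays, lines join the 4 values of a gene, and black bars are medians over the genes shown (37 large subunit genes on the left, 28 small subunit genes on the right). In both panels the median is highest on BY4741 40 °C, the array on which 27 of the large and 16 of the small subunit genes had their highest value.

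Most members shared the same highest array, while the lowest array varied between members. BY4741 40 °C was the highest of the 4 arrays for 44 of 66 members, against 25.4% of all genes. BY4741 30 °C was highest for 10 members and the hsp30Δ-labelled 30 °C array for another 10, against 34.7% and 25.5% of all genes. The array labelled hsp30Δ 40 °C was highest for 2 members, MRP7 and RSM22, against 14.4% of all genes. The spread of a member over the 4 arrays was modest. It ran from 0.30 log2 units for MRPL19, the homologue of bacterial L11, to 1.47 for MRPL32. MRPL32 codes for a protein that is matured inside mitochondria by the m-AAA protease, a step known to precede its entry into the ribosome. It read 11.92 on unheated and 12.46 on heated BY4741, and 10.99 and 11.20 on the hsp30Δ-labelled arrays. Both strain labels thus kept their own range for this gene, with the hsp30Δ-labelled arrays below both BY4741 arrays.

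Most mitoribosomal genes were slightly higher on the heated BY4741 array than on the unheated one. In this comparison 52 of 66 members were higher, against 54.8% of all genes, with a median difference of 0.46 log2 units (1.37-fold). The median of all genes was 0.13. Among the 599 genes whose mean level lay between the quartiles of the members' levels, a group that includes members, 65.1% were higher and the median was 0.31. Set against genes of like level, the members' median was thus 0.46 against 0.31. Large differences were few: 5 members were at least 2-fold higher, where 18.9% of all genes were, and 0 were at least 2-fold lower, where 18.8% of all genes were. The interquartile range of the members was 0.59 log2 units, against 1.51 for all genes.

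The highest heat difference in BY4741 was that of MRPL33, the homologue of bacterial L30. MRPL33 went from 12.31 at 30 °C to 13.67 at 40 °C, a 2.57-fold difference. The other 4 members past 2-fold came from both subunits. MRPS17, the homologue of bacterial S17, went from 11.80 to 12.95 (2.22-fold). MRPL51, a protein of the large subunit that bacteria lack, went from 11.97 to 13.10 (2.18-fold). MRPL16, the homologue of bacterial L16, went from 12.63 to 13.70, and MRPS16, the homologue of bacterial S16, from 12.43 to 13.45. MRPL24, which corresponds to bacterial L28, lay just under 2-fold (11.95 and 12.93). MRP7, which corresponds to L27, a protein near the catalytic centre in bacterial ribosomes, read 11.75 and 12.60.

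Of the 66 members, 14 were lower on the heated BY4741 array, against 45.0% of all genes. MRPL3, a large subunit protein with a fold related to ribonuclease III, had the largest downward difference, from 11.68 to 11.00 (1.61-fold). RSM19, the homologue of bacterial S19, went from 11.87 to 11.32. RSM26, a small subunit protein related in sequence to superoxide dismutases, went from 12.03 to 11.49. MRP1, the other member of that family, moved the other way, from 12.65 to 13.00. MRPL11, the homologue of bacterial L10, read 11.83 and 11.45, and MRP4, the homologue of S2, read 12.37 and 12.12. RSM22, a protein related to methyltransferases, read 10.16 and 9.90.

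On the hsp30Δ-labelled arrays the same genes showed little difference between temperatures. Of 66 members, 38 were lower at 40 °C and 28 higher, against 48.6% and 51.3% of all genes, with a median of -0.11 beside 0.01 for all genes. No member was 2-fold apart in either direction, where 1.62% (higher) and 1.57% (lower) of all genes reached 2-fold. In all, 48 of 66 members lay within 0.3 log2 units of 0, against 57.1% of all genes. MRPL33 again stood at the end of the list, now the lower one: it read 13.48 at 30 °C and 12.82 at 40 °C. MRPL49, the homologue of bacterial L21, went from 12.10 to 11.59. MRP20, the homologue of L23, a protein at the exit of the ribosomal tunnel, went from 12.20 to 11.70. RSM27 (10.68 and 10.20), RSM18 (13.97 and 13.49) and MRP49 (13.71 and 13.27) were next. At the upper end stood MRPS35, a small subunit protein specific to mitochondria, at 11.32 and 11.79, followed by MRP7 at 12.36 and 12.74. MRP51, known for its part in translating mitochondrial mRNAs, read 12.39 and 12.75. MRPL17 (11.35 and 11.71), MRP4 (11.68 and 12.01) and RSM25 (10.98 and 11.29) were next.

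**Figure D2:**
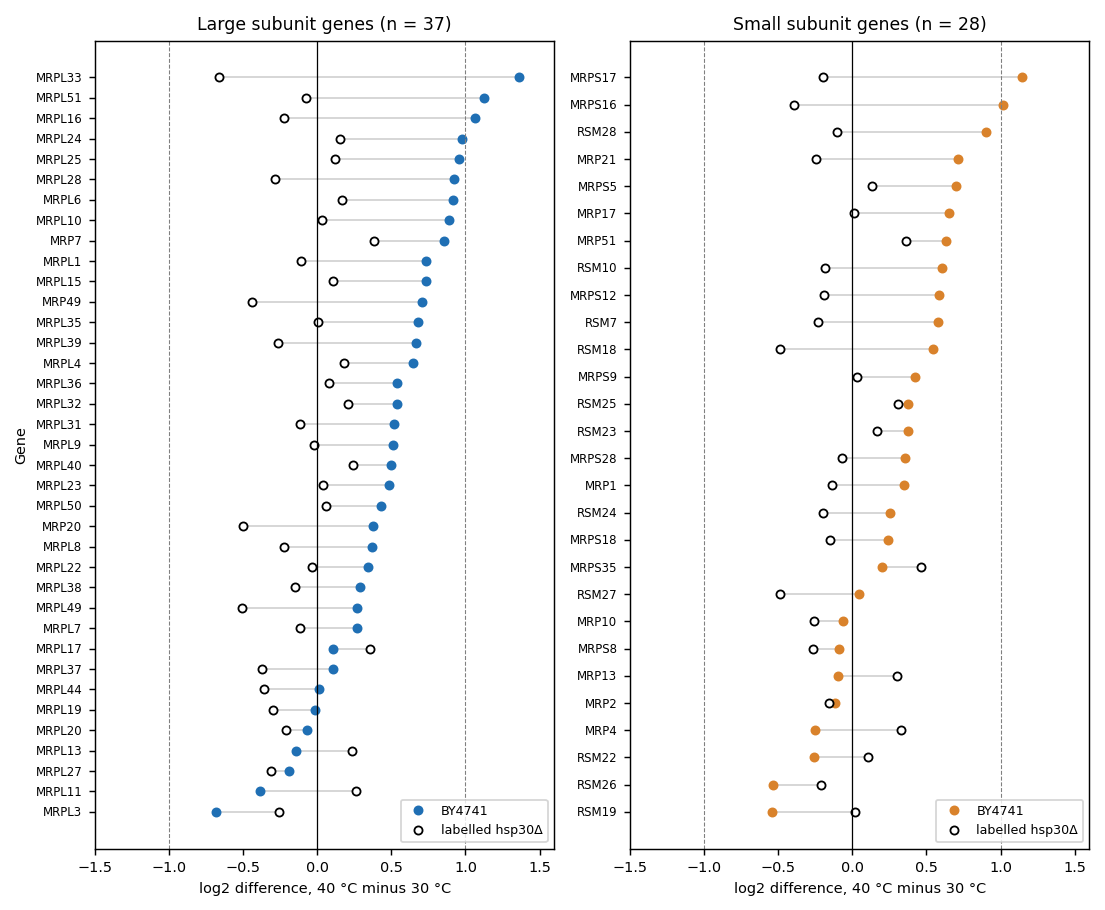
Each row is 1 gene, with the log2 difference of 40 °C minus 30 °C in BY4741 (filled) and on the hsp30Δ-labelled arrays (open), 1 array per group; dashed lines mark 2-fold. Genes are sorted by the BY4741 difference, which runs from -0.68 for MRPL3 to 1.36 for MRPL33, while the open points run from -0.66 for MRPL33 to 0.47 for MRPS35.

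The heat differences of the 2 strain labels, which share no array, had correlations of -0.05 (Pearson) and 0.01 (Spearman) over the 66 genes, given without a p because genes of 1 array are not replicates. Over all genes they were -0.14 and -0.19. Of the members, 30 were higher with heat in BY4741 and lower on the hsp30Δ-labelled arrays, and 6 the reverse. Another 22 were higher in both and 8 lower in both. Of the 5430 genes, 1644 and 1447 had these opposite signs, 1327 were higher in both and 991 lower in both. The sign was thus the same for 45.5% of the members, close to the 42.7% of all genes. Members with opposite signs were split less evenly than all genes were. The 8 lower in both were MRP10, MRP2, MRPL19, MRPL20, MRPL27, MRPL3, MRPS8 and RSM26, a set chosen after its values were seen. MRP10 is imported through the disulfide relay of the intermembrane space, and it read 12.47, 12.40, 12.77 and 12.51 on the 4 arrays. It was thus among the members with the smallest spread, 0.37 log2 units.

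The difference of the heat responses, hsp30Δ minus BY4741, uses all 4 arrays and has no test. It was below 0 for 56 of 66 members and above 0 for 10, against 54.5% and 45.5% of all genes. The members' median was -0.47, beside -0.13 for all genes. For the 599 genes of like level the median was -0.34, and 62.6% were below 0. For 9 members the difference was at least 2-fold downward, where 22.6% of all genes were. For 0 it was at least 2-fold upward, where 21.7% were. MRPL33 had the lowest value, -2.02 log2 units. MRPS16 (-1.41), MRPS17 (-1.35), MRPL16 (-1.29), MRPL28 (-1.21) and MRPL51 (-1.21) followed, and all but MRPL28 were among the 5 members past 2-fold in BY4741. The highest values were those of MRPL11 (0.65), MRP4 (0.58) and RSM19 (0.56), followed by MRPL3 (0.43), MRP13 (0.40) and MRPL13 (0.38). All 6 were lower with heat in BY4741, by 0.10 to 0.68 log2 units. The BY4741 heat difference is subtracted in this value, so both ends of the ranking partly restate the BY4741 ranking. MRP4 was lower by 0.25 in BY4741 and higher by 0.33 on the hsp30Δ-labelled arrays, while for RSM19 nearly all of the value came from BY4741.

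At 30 °C the mitoribosomal genes lay on both sides of 0 between the arrays of the 2 strain labels. Members were split evenly, with 33 above BY4741 and 33 below it on the hsp30Δ-labelled array, against 53.5% and 46.3% of all genes, and with a median of -0.00 beside 0.11 for all genes. At least 2-fold higher were 3 members, where 23.2% of all genes were, and at least 2-fold lower were 2, where 21.4% were. In all, 30 of 66 members lay within 0.3 log2 units of 0, against 19.2% of all genes. MRPS17 had the highest difference, 11.80 on BY4741 and 13.05 on the hsp30Δ-labelled array (2.38-fold). MRP49, a large subunit protein specific to mitochondria, read 12.55 and 13.71 (2.25-fold), and MRPL33 read 12.31 and 13.48 (2.24-fold). MRPL51 (11.97 and 12.80), RSM7, the homologue of bacterial S7 (12.59 and 13.33), and MRP20 (11.47 and 12.20) were next. On the lower side RSM19 read 11.87 and 10.77 (2.14-fold), and MRPL17, a mitochondrion-specific protein of the large subunit, 12.36 and 11.35 (2.02-fold). MRPL13 (12.35 and 11.40), MRPL32 (11.92 and 10.99), MRP2, the homologue of S14 (12.47 and 11.58), and MRPL20 (11.06 and 10.22) followed without reaching 2-fold.

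At 40 °C most members were lower on the hsp30Δ-labelled array. In this comparison 58 of 66 were lower, against 49.6% of all genes, with a median of -0.54 log2 units (1.45-fold lower). The median was 0.00 for all genes and -0.01 for the 599 genes of like level, of which 303 were lower. At least 2-fold lower were 10 members, where 3.59% of all genes were, and 0 were at least 2-fold higher, where 6.70% of all genes were. MRP21, the homologue of bacterial S21, read 11.82 on BY4741 and 10.49 on the hsp30Δ-labelled array (2.51-fold). MRPL25, a large subunit protein that bacteria lack, read 12.92 and 11.63 (2.45-fold), and MRPS12, the homologue of S12, a protein of the decoding centre, 14.24 and 12.95 (2.44-fold). MRPL32 (12.46 and 11.20), RSM27 (11.41 and 10.20) and MRPL28 (13.21 and 12.00) were next. Of these 6 genes, 5 were higher with heat in BY4741 by 0.54 to 0.96 log2 units, while RSM27 read 11.36 and 11.41 there. Both comparisons use the heated BY4741 array, so a high value on it enters both.

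At 40 °C 8 members were higher on the hsp30Δ-labelled array, against 50.3% of all genes: RSM26, RSM22, MRPL3, MRP7, MRPL22, MRP10, MRP13 and MRP49. RSM26 read 11.49 on BY4741 and 12.12 on the hsp30Δ-labelled array, RSM22 9.90 and 10.39, and MRPL3 11.00 and 11.41. These 3 were also among the 6 with the lowest heat differences in BY4741, and both comparisons use the heated BY4741 array. MRPL22, like MRP20 a homologue of a bacterial tunnel exit protein, read 12.43 and 12.54. The difference of MRP49, 0.02, changes sign when each array is centred on its median.

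**Figure D3:**
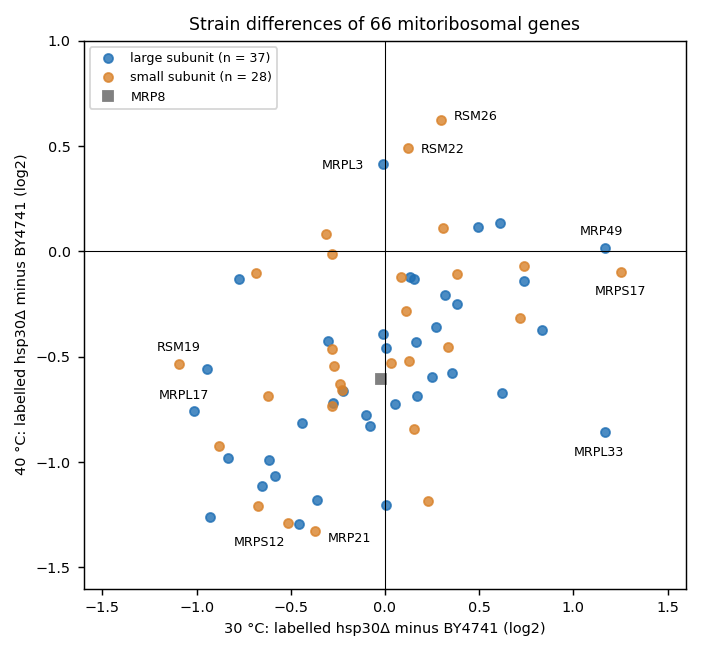
Each point is 1 of the 66 genes, with the log2 difference between the hsp30Δ-labelled array and BY4741 at 30 °C (horizontal) and at 40 °C (vertical), 1 array per group. The points are spread evenly about 0 along the horizontal axis (33 higher, 33 lower) and mostly below 0 along the vertical axis (58 lower).

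The strain differences at the 2 temperatures, which share no array, had correlations of 0.46 (Pearson) and 0.50 (Spearman) over the 66 genes, and of 0.36 and 0.28 over all genes. They are given as a description. The sign was the same at both temperatures for 37 of 66 members, of which 31 were lower and 6 higher on the hsp30Δ-labelled arrays. This is 56.1% of the members, close to the 58.9% of all genes, of which 1492 were lower at both temperatures and 1705 higher. Another 27 were higher at 30 °C and lower at 40 °C, and 2 the reverse, beside 1199 and 1018 of the 5430 genes. Members with opposite signs were thus split less evenly than all genes were. RSM19 illustrates the first pattern, with 11.87 and 11.32 on BY4741 against 10.77 and 10.79. MRPL16 is an example of the second, with 12.63 and 13.70 on BY4741 against 13.25 and 13.03.

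The large and the small subunit had close medians in every comparison. For heat in BY4741 the median was 0.51 over 37 large subunit genes (31 higher) and 0.37 over 28 small subunit genes (20 higher). On the hsp30Δ-labelled arrays the medians were -0.08 and -0.15. For the strain label they were 0.01 and -0.10 at 30 °C, and -0.60 and -0.49 at 40 °C, where 33 of 37 large and 24 of 28 small subunit genes were lower. Large minus small, the medians differed by 0.14, 0.07, 0.10 and -0.11 log2 units in these 4 comparisons. The interquartile range within each subunit was wider, at 0.47 for the large and 0.68 for the small subunit genes with heat in BY4741. Of all genes, 54.8% were higher with heat in BY4741 and 49.6% were lower for the strain label at 40 °C.

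Members were also divided by descent, into 40 with a bacterial homologue and 24 specific to mitochondria, leaving out RSM22 and MRP8. This division was made after earlier results were known and has no test. For heat in BY4741, 34 of the 40 homologues were higher with a median of 0.54, and 17 of the 24 specific proteins with a median of 0.22. The interquartile range of the homologues was narrower, 0.37 against 0.75 log2 units. Of all genes, 54.8% were higher with heat in BY4741, with a median of 0.13. At 40 °C, 38 of the 40 homologues were lower on the hsp30Δ-labelled array, and 19 of the 24 specific proteins, with medians of -0.54 and -0.49. MRP7 and MRPL22 were the homologues that were higher. Among all genes 49.6% were lower in this comparison, with a median of 0.00. Within the small subunit all 17 homologues were lower with a median of -0.53, and 7 of 10 specific proteins with a median of -0.12. Within the large subunit 21 of 23 homologues were lower with a median of -0.60, and 12 of 14 specific proteins with a median of -0.66. At 30 °C the medians of the homologues and the specific proteins were 0.04 and -0.19, and for heat on the hsp30Δ-labelled arrays -0.09 and -0.13. MRP8, which was placed in neither class, read 14.55 and 15.18 on BY4741 and 14.54 and 14.58 on the hsp30Δ-labelled arrays.

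Mitoribosomal proteins with other names gave similar values. Of 14 such genes, 13 were higher with heat in BY4741 (median 0.46), 9 were lower with heat on the hsp30Δ-labelled arrays (median -0.14), and 12 were lower on the hsp30Δ-labelled array at 40 °C (median -0.52). At 30 °C 9 were higher and 5 lower, with a median of 0.07. YML6, the homologue of bacterial L4, read 11.48 and 12.47 on BY4741 and 13.22 and 13.01 on the hsp30Δ-labelled arrays, so both hsp30Δ-labelled arrays were above both BY4741 arrays. MNP1, the homologue of the stalk protein L7/L12, was the one gene of the 14 that was lower with heat in BY4741, at 13.02 and 12.81. RTC6, the homologue of L36, had the largest downward difference at 40 °C, 13.05 against 11.90.

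Other genes of mitochondrial gene expression were more varied. The tRNA synthetases of mitochondria, which charge the tRNAs used by these ribosomes, had a median of 0.02 for heat in BY4741 (8 of 13 higher) and 0.17 for the strain label at 40 °C (5 of 13 lower). MST1, the threonyl enzyme, read 10.52 and 9.60 on BY4741 and 9.65 and 10.30 on the hsp30Δ-labelled arrays. Translation factors had a median of 0.61 for heat in BY4741, with 7 of 10 higher, and 0.91 for the strain label at 30 °C. Among them TUF1, the elongation factor Tu gene, read between 14.43 and 14.50 on all 4 arrays, while MEF2, an elongation factor G homologue, read 10.93, 12.29, 13.06 and 12.65. Translational activators, which bring single mitochondrial mRNAs to the ribosome, were higher with heat in BY4741 for 15 of 16 genes, with a median of 0.70. CBS1, an activator for cytochrome b, read 8.37 and 10.58 on BY4741 and 10.38 and 10.29 on the hsp30Δ-labelled arrays. At 40 °C the activators had a median of 0.01 for the strain label, with 7 of 16 lower. Assembly and rRNA modification genes had a median of 0.58 for heat in BY4741 (8 of 13 higher) and -0.16 for the strain label at 40 °C (8 of 13 lower). RRG9 had the largest heat difference of that list, from 9.36 to 10.93. The mitochondrial transcription list had a median of 0.03 for heat in BY4741 and -0.07 for the strain label at 40 °C. RPO41, the mitochondrial RNA polymerase, read 12.13, 13.02, 13.87 and 13.78.

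The respiratory chain and ATP synthase genes, whose products include the partners of the proteins made on these ribosomes, were read beside the members. All 37 were higher with heat in BY4741, with a median of 0.86, and 35 were lower on the hsp30Δ-labelled array at 40 °C, with a median of -0.37. They differed from the members at 30 °C, where 36 of 37 were higher on the hsp30Δ-labelled array. The median there was 0.60, beside -0.00 for the members. Their difference of the heat responses also lay further from 0, with a median of -1.11 beside -0.47. With heat on the hsp30Δ-labelled arrays 29 of the 37 were lower, with a median of -0.18 beside -0.11. The genes of the cytosolic ribosome went another way. All 128 were lower with heat in BY4741, with a median of -2.01, and all 128 were lower on the hsp30Δ-labelled array at 30 °C, with a median of -2.20. RPL13A, a cytosolic large subunit protein, read 14.33, 10.56, 10.52 and 10.74. At 40 °C 105 of the 128 were lower, with a median of -0.26. Ribosome biogenesis genes, which serve the cytosolic ribosome, had medians of -3.52 for heat in BY4741 and -3.76 for the strain label at 30 °C. The heat comparison in BY4741 and the strain comparison at 30 °C both subtract the unheated BY4741 array, and their values are given side by side only.

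**Figure D4:**
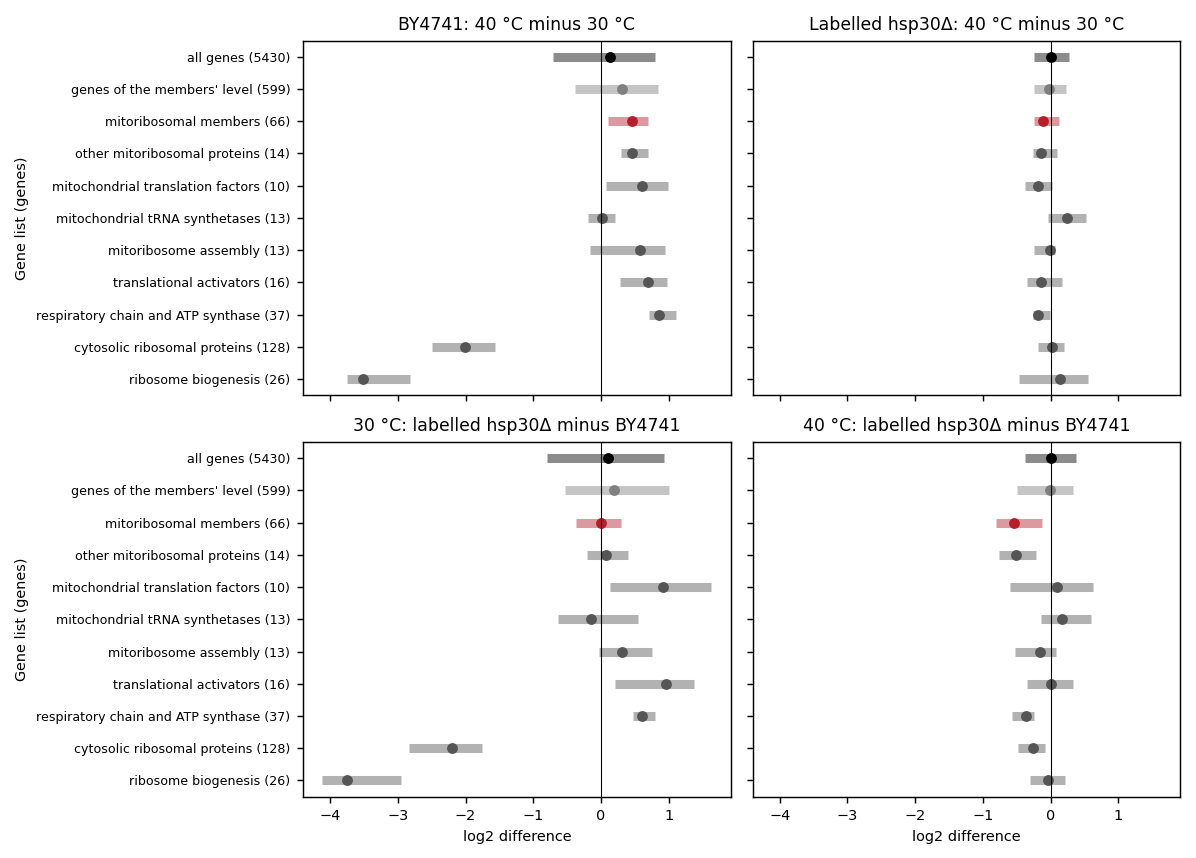
Points are medians over genes of the log2 difference named above each panel, and bars are interquartile ranges of each list (number of genes in parentheses), with 1 array per group. The 66 mitoribosomal genes (red) have medians of 0.46, -0.11, -0.00 and -0.54 in the 4 panels, far from the cytosolic ribosomal proteins in the BY4741 heat panel (-2.01) and in the 30 °C strain panel (-2.20).

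Regulators linked to mitochondrial genes were read as well. HAP4, the activating subunit of the Hap complex that drives respiratory genes, read 14.05 and 15.14 on BY4741 and 15.06 and 15.02 on the hsp30Δ-labelled arrays. HAP2 read 10.73, 12.71, 12.57 and 12.31. PUF3, an mRNA-binding protein known to bind mRNAs of mitochondrial ribosomal proteins, ranged from 7.94 on unheated BY4741 to 9.98 on the unheated hsp30Δ-labelled array. HAP3 read 9.76, 10.69, 10.33 and 10.15, and HAP5 read 10.38, 11.92, 11.69 and 11.47. HAP1, a haem-responsive activator, differed from the rest of the list, with 12.01 and 11.11 on BY4741 and 12.82 and 12.10 on the hsp30Δ-labelled arrays. Unheated BY4741 was the lowest array for 5 of these 6 genes, as it was for 25 of the 66 members and 43.2% of all genes, and heated BY4741 was the lowest for HAP1. The part of these regulators in the members' levels was not tested.

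Only the fit over all 4 arrays gave a test, which asks for differences by heat that both strain labels share, or by strain that both temperatures share. It used limma with additive terms for strain and temperature, with 1 residual degree of freedom per gene. With 1 array per group, that residual comes from the difference of the heat responses and not from replicates. The standard errors and p-values of this fit therefore do not measure a spread between replicate cultures. For heat 0 of 66 members had a limma p under 0.05 after Benjamini-Hochberg adjustment, where 0.00% of all genes did, and 50 members had an estimate above 0. For strain 0 of 66 members passed, where 0.203% of all genes did, and 48 members had an estimate below 0. Without adjustment 0 members had a p under 0.05 for either term, where 2.01% and 8.20% of all genes did. The smallest adjusted p in limma was 0.998 among the members for heat and 0.631 for strain. The gene nearest to the threshold for strain was MRPL32, with an unadjusted limma p of 0.0964. Standard errors of the members in this fit lay between 0.57 and 0.68 log2 units.

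Neighbouring genes on the chromosomes were compared last, using the gene order of the RefSeq R64 table. The members form 1 neighbouring pair, RSM19 and MRPS12. These neighbours did not move together with heat in BY4741, where RSM19 went from 11.87 to 11.32 and MRPS12 from 13.66 to 14.24. Both were lower on the hsp30Δ-labelled arrays than on BY4741 at each temperature. MRPL1, the homologue of L1, is next to MRX14, a mitoribosomal protein with another name. MRPL1 read 12.22, 12.96, 12.48 and 12.37, and MRX14 read 12.22, 12.89, 12.58 and 12.30, so the pair had the same order of arrays. The 118 other neighbours of members had a median of -0.03 for heat in BY4741, with 56 higher, and of -0.09 for the strain label at 40 °C. The interquartile range of these neighbours was 1.43 log2 units for heat in BY4741, against 0.59 for the members.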

How the data were processed

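The authors deposited 1 table of log2 expression values for 5802 probe sets on 4 Affymetrix arrays. Per the submitters' processing notes, GCRMA and MAS5 were used, with no version, role or order given, and the log2 scale was read from the range of the values, 1.95 to 16.19. Array medians lay between 11.12 and 11.19, so the deposited log2 values were used with no further scaling. Genes were named through the platform annotation and RefSeq gene IDs, and a gene with several probe sets was read from the one with the highest mean. Background was the 95th percentile of 32 fission yeast probe sets, median over arrays (1.96), values below it were raised to it, and a gene was kept if above it on at least 1 array (5430 of 5436). With 1 array per group, differences are given without a test, with counts past 2-fold. The fit was limma 3.58.1 in R 4.3.3 on unfloored values, with p-values adjusted over all genes. It was tried on simulated data with residuals scaled down from the real ones and strain shifts larger than those of any member. That trial does not show what the fit could find among the members. The number of arrays limits every value. Members were named by rule (the 6 highest and 6 lowest of each comparison, and those past a test), with up to 3 genes of a list, not always those with its largest differences, and the label check genes other than LEU2 and URA3. Some further genes were named after their values were seen. Members and lists were chosen with earlier results of these data known. The subunit and descent of each member were assigned from general knowledge of the yeast mitochondrial ribosome. Promoter motifs and sequences were planned and were not analysed here. RefSeq R64 served only for names and gene order, and no coordinates are given because the deposited table names no genome build.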

Additional observations from a re-analysis of the deposited data

Results flagged for a closer look

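The median heat differences of the mitoribosomal genes had opposite signs under the 2 strain labels. Of single members, 30 of 66 had the same sign under both, against 42.7% of all genes. Over all members the median was 0.46 log2 units in BY4741 and -0.11 on the hsp30Δ-labelled arrays. For all genes it was 0.13 and 0.01. For the large subunit genes it was 0.51 and -0.079, and for the small subunit genes 0.37 and -0.15. On the hsp30Δ-labelled arrays 48 of 66 members lay within 0.3 log2 units of 0, against 57.1% of all genes. The BY4741 values rest on the unheated array that stood apart from the others. With 1 array per group the difference between the strain labels was not tested.

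Of single members with opposite heat differences of at least 0.4 in size, MRPL33 had 1.36 and -0.66, MRP49 had 0.71 and -0.44, and RSM18 had 0.55 and -0.49, in BY4741 and on the hsp30Δ-labelled arrays. By the same measure the strain difference changed sign between 30 °C and 40 °C for MRPL33, from 1.17 to -0.86, and for MRPL16, from 0.62 to -0.67. The share of all genes that meet this 0.4 rule is not given here. Opposite heat signs of any size were common among the 5430 genes. Higher in BY4741 and lower on the hsp30Δ-labelled arrays were 1644, and 1447 were the reverse. For the strain difference, 1199 were higher at 30 °C and lower at 40 °C, and 1018 the reverse. The values of the single members use the same 4 arrays and were not tested either.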

How the results depend on the processing

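The members' medians and the large minus small subunit differences moved by less than 0.1 log2 units under quantile normalization, median centring, no floor, no filter, averaged probe sets, no suffixed probe sets and the wider list of mitoribosomal proteins. No 2-fold count of members moved by over 1.5 times in these. With 1.5-fold in place of 2-fold, 25 members were higher and 1 lower for heat in BY4741. For heat on the hsp30Δ-labelled arrays the higher and lower counts were 0 and 1. For strain they were 9 and 13 at 30 °C, and 1 and 30 at 40 °C. For the difference of the heat responses they were 1 and 27. The share of all genes past 1.5-fold is not given here, so these counts have no background to be read against. With limma, 0 members passed under any of these settings, while all genes passing for strain went from 11 to 110 under quantile normalization and to 0 under median centring or no filter. The cause was not tested. Quantile normalization or median centring turned the sign of at most 4 members in a comparison, each with a difference of 0.04 or less in size. Chosen after seeing the data, the genes of the members' level had medians of 0.31 for heat in BY4741, against 0.13 for all genes, and of -0.34 for the difference of the heat responses, against -0.13. No paired analysis was possible because each group has 1 array, and for the same reason no array could be left out.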
